A study of Mus musculus with 8 samples.

Results

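The autophagy machinery and its receptors were followed as 37 named genes, chosen by name, in RNA from mouse Th1 cells, the helper T cells that secrete interferon gamma. All 37 were found among the 33836 genes placed in the deposited table, Atg101 under its older symbol 9430023L20Rik. By the step at which the encoded protein acts, they were the ULK1 initiation complex (5 genes), the class III PI3 kinase complex (6), PI3P effectors and lipid transfer proteins (5), the conjugation enzymes (6), the ATG4 proteases (4), the ATG8 proteins (5), and cargo and mitophagy receptors (6).

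In autophagy a double membrane closes around cytoplasm or a damaged organelle and delivers it to the lysosome. The ULK1 kinase complex starts the process, a lipid kinase complex marks the growing membrane with PI3P, lipid transfer proteins feed it, and an enzyme chain like that of ubiquitin couples ATG8 proteins to it. Receptors such as Sqstm1 tether cargo to ATG8 proteins. Much of the pathway is governed by cutting, phosphorylation and turnover of proteins, and RNA levels do not measure its flux. Pcbp1 is an RNA-binding protein that is also an iron chaperone, and ferritin, the iron store, is degraded by autophagy through the receptor Ncoa4.

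The cells were CD4 T cells of C57BL/6 mice, stimulated with antibodies to CD3 and CD28 while IL-12 (2 ng/ml) was present and IL-4 was blocked by an antibody (5 µg/ml). There were 8 libraries in 4 groups of 2. In the knockdown experiment cells carried an shRNA that targets Pcbp1 or a scrambled hairpin, and RNA depleted of ribosomal RNA was sequenced. In the other experiment cells received CPX, named an iron chelator in the labels (the abbreviation is used for ciclopirox), or its solvent DMSO, and polyA RNA was sequenced. All cells of the knockdown experiment were transduced, controls included. The sources used here give neither the CPX dose nor the hours of treatment or the time after transduction. They do not say whether the 2 replicates of a group came from separate cultures or animals. The p-values therefore measure the spread between these libraries, and how far it is technical is not known. In the knockdown experiment markers of CD8 T and NK cells differed between the replicate numbers, alike with both hairpins (values below). Whether those replicates began from separate cell preparations was not tested.

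The knockdown libraries held between 14174293 and 15518303 reads, and the CPX and DMSO libraries between 19193784 and 19662145 units of about 1.965 reads each. Levels are given as RPM, a library's value for a gene divided by its total and multiplied by 1e+06. Pcbp1 had 15.1 and 16.1 RPM with the Pcbp1 hairpin, against 44 and 51.7 RPM with the scrambled hairpin (log2 fold change -1.73 ± 0.12, adjusted p = 3.18e-05; values after ± are standard errors of a log2 fold change throughout). It also had 238 and 199 RPM with CPX, against 506 and 538 RPM with DMSO (log2 fold change -1.26 ± 0.20, adjusted p = 0.00611). Replicates agreed less well with CPX (Pearson r across genes 0.9541, 1773 genes over 2-fold apart) than with DMSO (0.9847, 524 genes), the Pcbp1 hairpin (0.9923, 94 genes) or the scrambled hairpin (0.9926, 77 genes). In the deposited table the labels after the line Ins1 held the values of the preceding gene, which displaced 14 of the 37 genes. The values printed under the label Ulk2, for example, are those of Ulk1. All values here are after the labels were set right.

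With CPX, 22 of the 36 autophagy genes tested were higher than with DMSO and 1 was lower. They were led by Atg2a, which transfers lipid into the growing membrane, and Sqstm1 (p62), the receptor for ubiquitinated cargo. Atg2a had 694 and 713 RPM with CPX, against 30.3 and 31.8 RPM with DMSO, the 35th highest of 11485 fold changes. Sqstm1 had 1934 and 1594 RPM with CPX, against 210 and 221 RPM with DMSO. In both genes the CPX libraries lay close together and far above DMSO. The rise was 22.3-fold in Atg2a and 8.13-fold in Sqstm1. In bulk RNA fewer cells of a type and less RNA per cell cannot be told apart.

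All 5 ATG8 genes of the set rose with CPX, as did 5 of 6 receptors, 4 of 5 genes of the ULK1 complex and 4 of 5 PI3P effectors and lipid transfer genes. Only 2 of 6 genes rose in the class III PI3 kinase complex and 2 of 6 among the conjugation enzymes, and no ATG4 protease rose. By limma with Benjamini-Hochberg adjustment over all genes tested, 20.0% of all genes were higher and 24.8% lower at adjusted p under 0.05, against 61.1% and 2.78% of the autophagy genes. The median log2 fold change of the autophagy genes was 1.18, and that of all tested genes -0.12. Wipi1 and Atg10 passed the filter of 1 RPM in 2 libraries only through the CPX libraries, so that their calls are no test; without such genes 20 of 34 were higher and 1 lower, against 14.8% and 25.5% of all genes. Without Wipi1 and Atg10 the rises came to 3 of 4 PI3P effectors and lipid transfer genes and 1 of 5 conjugation enzymes. At least 2-fold higher were 18 of the 36 genes, Wipi1 and Atg10 among them, against 18.1% of all tested genes. Under TMM scaling the median of all genes was 0.00 in this comparison and that of the autophagy genes 1.28. In that fit 24 of them were higher, Ulk2 and Uvrag included, where 22.5% of all genes were.

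Leaving out 1 library at a time ended part of these calls and added others. Added without CPX replicate 1 were Ulk2 (log2 fold change 1.63), Pik3r4 (0.71) and Atg2b (-0.79). Added without CPX replicate 2 were Uvrag (log2 fold change 1.73) and Atg5 (-0.83). Without DMSO replicate 1 or DMSO replicate 2, 11 of the 36 genes were higher, with 9.48% and 11.7% of all genes. The rises of Atg13, Becn1, Atg14, Atg9a, Atg10, Gabarapl1, Gabarapl2, Nbr1, Optn and Pink1 were lost in both of these fits, that of Gabarap without DMSO replicate 1 and that of Rb1cc1 without DMSO replicate 2 (adjusted p between 0.0626 and 0.314). Without CPX replicate 1 the rises of Gabarapl1 and Optn were lost (adjusted p = 0.0789 and 0.144), and without CPX replicate 2 those of Atg13, Atg9a and Optn (adjusted p between 0.0512 and 0.0907). Without the filter on low values the calls on Rb1cc1, Atg13, Atg10, Gabarapl1, Optn and, lower, Atg4d were lost (adjusted p between 0.051 and 0.0921), and under quantile normalization those on Atg4d and Atg10 (adjusted p = 0.0615 and 0.323). The rises of Ulk1, Atg101, Wipi2, Atg2a, Atg12, Map1lc3a, Map1lc3b, Sqstm1 and Calcoco1 were called in every alternative run.

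**Figure D1:**
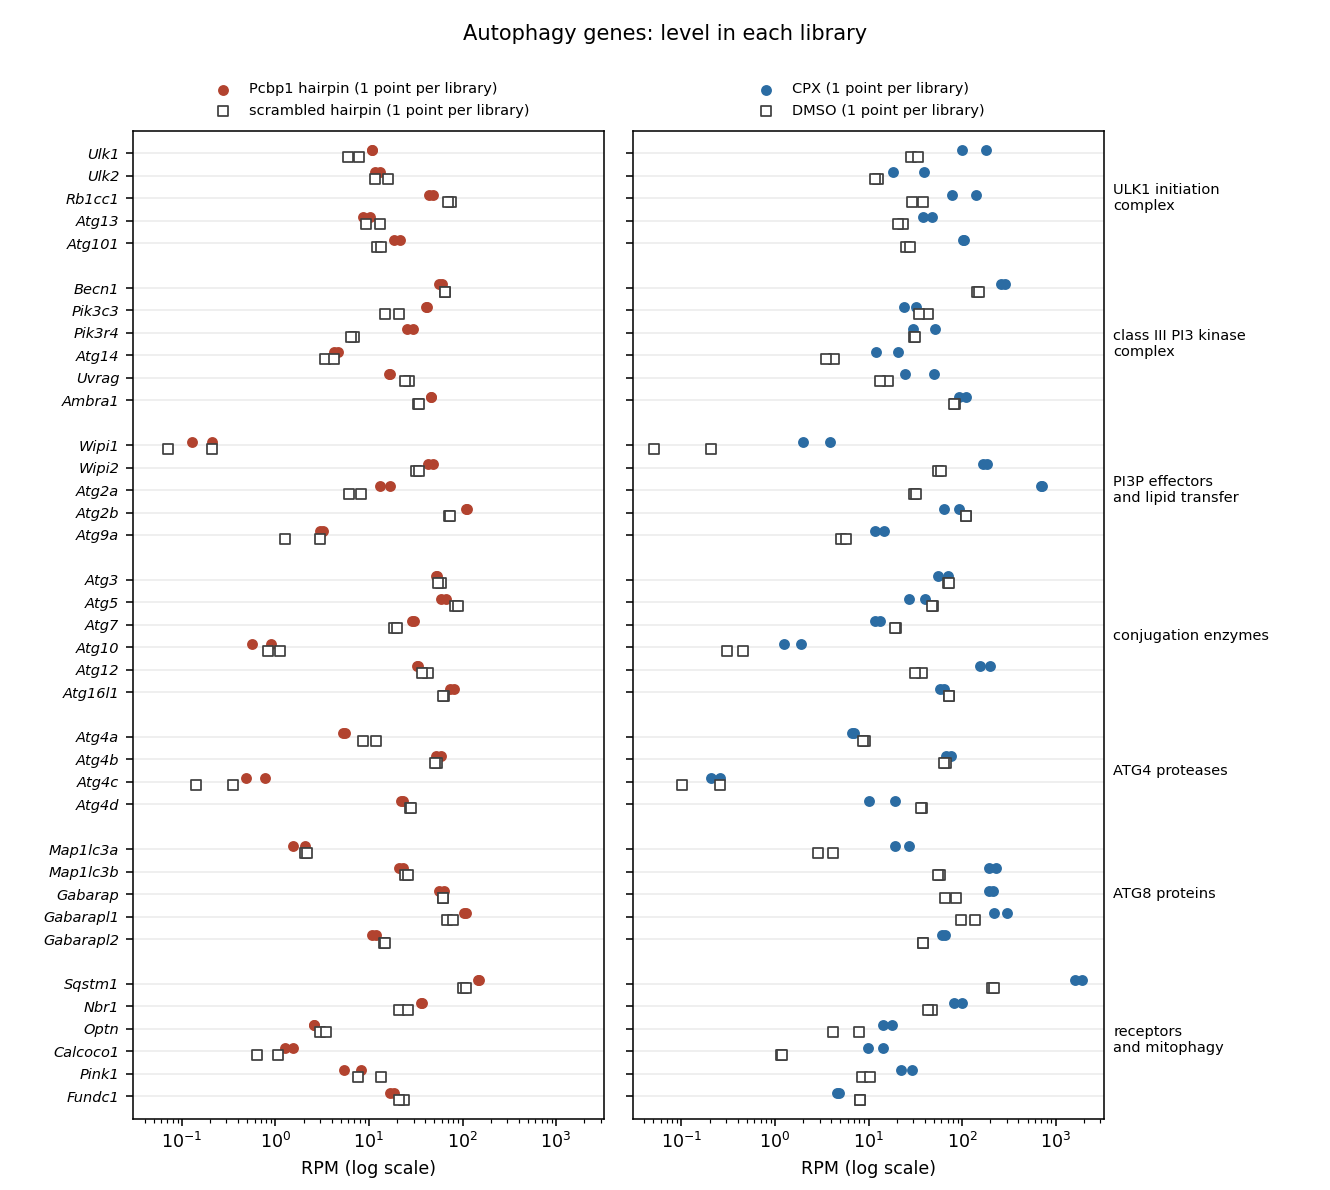
Level of each of the 37 genes in each library, in RPM on a log scale, grouped by step, with 1 point per library; the left panel sets the Pcbp1 hairpin (filled circles) beside the scrambled hairpin (open squares), the right panel CPX (filled circles) beside DMSO (open squares). Atg2a with CPX, at 694 and 713 RPM, lies far to the right of its DMSO points at 30.3 and 31.8 RPM.

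With the Pcbp1 hairpin, 13 of the 34 autophagy genes tested were higher and 10 lower than with the scrambled hairpin. The largest rises were in the lipid kinase Pik3c3 (Vps34) and its regulatory subunit Pik3r4 (Vps15). By edgeR's quasi-likelihood test with Benjamini-Hochberg adjustment, 29.3% of all genes tested were higher and 26.7% lower, against 38.2% and 29.4% of the autophagy genes, so that both shares stood nearer to the background than the share higher with CPX. At least 2-fold higher or lower were 3 of the 34 (Pik3r4, Pik3c3 and Atg4a), and 13.7% of all genes. The genes' median log2 fold change was -0.08, against 0.00 over all genes, and was 0.02, against 0.10 over all genes, without TMM scaling. Limma without TMM scaling gave 13 higher and 8 lower, where 34.6% of all genes were higher and 21.6% lower. It did not call Becn1 (adjusted p = 0.123) or Atg3 (adjusted p = 0.216). Transcript length and GC content were then taken out in the same limma fit, an alternative added after seeing the data. With length and GC content taken out 8 were higher and 5 lower, where 30.7% of all genes were higher and 16.4% lower. Not called in it were Ulk1, Ambra1, Wipi2, Atg2a, Atg2b and Atg16l1 (higher in the main test) and Becn1, Atg3, Atg4a, Atg5 and Gabarapl2 (lower in the main test). Their adjusted p lay between 0.0658 and 0.885, and the call on Fundc1 turned. DESeq2 did not call Ulk1, Becn1, Ambra1, Wipi2, Atg3, Atg16l1 and Gabarapl2 (adjusted p between 0.0539 and 0.188). Calls were lost without hairpin replicate 1 for Ulk1, Wipi2, Atg3, Atg16l1, Gabarapl2 and Fundc1, without hairpin replicate 2 for Ulk1, Becn1, Ambra1 and Atg3, without scrambled replicate 1 for Becn1, Ambra1, Wipi2, Atg3, Atg12, Atg16l1 and Fundc1, and without scrambled replicate 2 for Ulk1, Becn1, Atg3, Atg16l1 and Gabarapl2 (adjusted p between 0.0598 and 0.212). Other calls were gained in such fits, among them Atg13 (log2 fold change -0.59) and Atg9a (1.19) without scrambled replicate 1. The calls on Atg101, Pik3c3, Pik3r4, Atg7, Gabarapl1, Sqstm1 and Nbr1 (higher) and Rb1cc1, Uvrag and Atg4d (lower) were made in every alternative run.

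**Figure D2:**
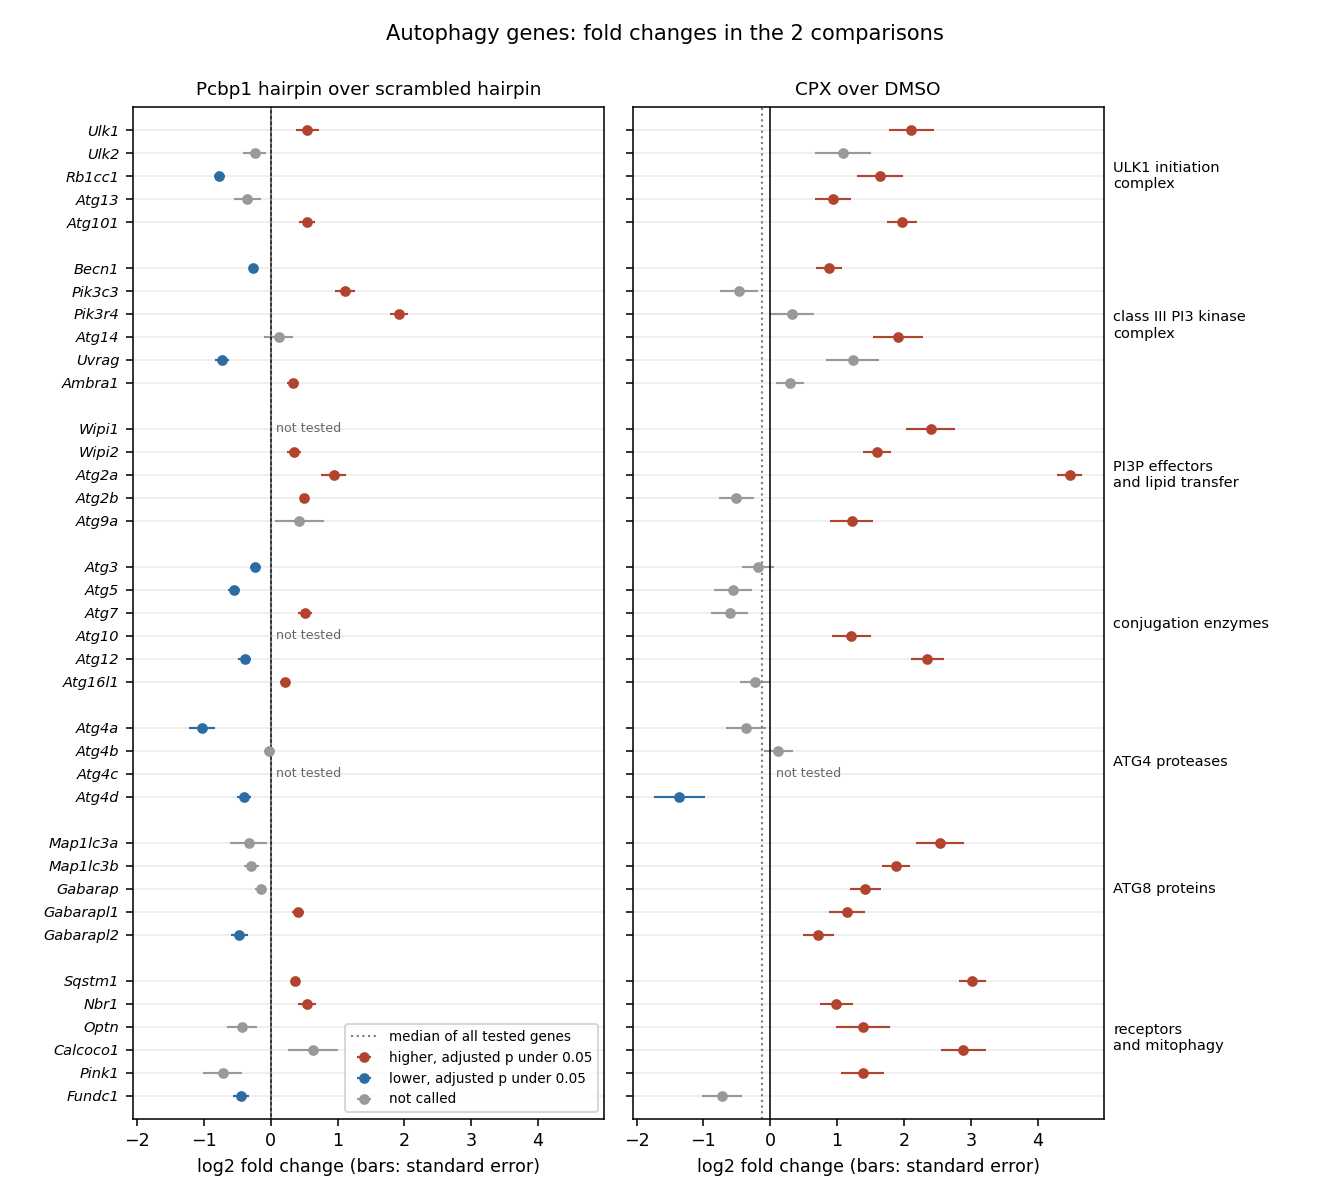
Log2 fold change of each gene with its standard error (bars), the Pcbp1 hairpin over the scrambled hairpin on the left and CPX over DMSO on the right; red marks higher and blue lower at adjusted p under 0.05, and the dotted line is the median of all tested genes. The CPX panel holds 22 red points, Wipi1 and Atg10 included, up to 4.48, and the knockdown panel 13 red and 10 blue points within -1.03 and 1.92.

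Markers of the labelled cell and of others were summed in each library. Th1 genes summed to 3571 and 7343 RPM with CPX, against 16879 and 27599 RPM with DMSO, and to 27877 and 22241 RPM with the Pcbp1 hairpin, against 54333 and 45201 RPM with the scrambled hairpin, most of it Ifng. All 12 of them were at 1 RPM or more in some library. The sums do not speak for each of the 12 genes. With CPX 1 was called higher and 7 lower, against 20.0% and 24.8% of all genes. With the hairpin 4 were called higher and 6 lower, against 29.3% and 26.7% of all genes. The log2 fold change of Cd4 was 0.88 in both comparisons. Beside the CPX result, 7 macrophage markers summed to 67.6 and 46.3 RPM with CPX, against 2.8 and 4.71 RPM with DMSO, by the 3 of 7 that reached 1 RPM (Itgam, Cd68 and Adgre1), while Lyz2 was at 0 in all 8 libraries and Csf1r and Mrc1 stayed under 1 RPM. The 6 dendritic cell markers summed to 22.9 and 26.4 RPM with CPX, against 2.95 and 3.27 RPM with DMSO, mostly Itgax. The 6 neutrophil markers summed to 7.71 and 6.96 RPM with CPX, against 0.153 and 0.153 RPM with DMSO, the 6 fibroblast markers to 7.19 and 3.85 RPM with CPX, against 0.712 and 0.614 RPM with DMSO, and the 6 B cell markers to 2.45 and 2.91 RPM with CPX, against 1.07 and 0.563 RPM with DMSO; in each of these lists 4 of 6 stayed under 1 RPM in every library. All 6 erythroid markers did so too. The markers Adgre1, Mpo, Col1a1, Cd79a and Cd79b passed the filter on low values only through the CPX libraries. Whether such cells were present, and their part in the CPX result, was not tested. Beside the knockdown result, 6 CD8 and NK markers summed to 92.5 and 12.5 RPM with the Pcbp1 hairpin, against 90.9 and 12.6 RPM with the scrambled hairpin, and so differed between the replicate numbers and not between the hairpins.

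The ULK1 complex joins the kinases Ulk1 and Ulk2 to the scaffold Rb1cc1 (Fip200), the adaptor Atg13 and Atg101, which stabilises Atg13. Ulk1 had 100 and 182 RPM with CPX, against 28.3 and 33.8 RPM with DMSO (log2 fold change 2.11 ± 0.34, adjusted p = 0.00675). Atg101 had 106 and 103 RPM with CPX, against 25.2 and 27.6 RPM with DMSO (log2 fold change 1.97 ± 0.22, adjusted p = 0.00315). Rb1cc1 had 78.7 and 141 RPM with CPX, against 38.3 and 29.3 RPM with DMSO (log2 fold change 1.64 ± 0.35, adjusted p = 0.0147). Each had both CPX libraries above both DMSO libraries. Here and below such separation of groups of 2 libraries is a description and no test. Its share over all genes was not counted. Atg13 rose less, at 38 and 47.6 RPM with CPX, against 23.2 and 20.7 RPM with DMSO (log2 fold change 0.94 ± 0.27, adjusted p = 0.0359). Ulk2 was the member of this complex that did not pass, at 18.2 and 38.9 RPM with CPX, against 12.7 and 11.7 RPM with DMSO (adjusted p = 0.0839); its CPX libraries lay above DMSO but apart from each other.

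With the hairpin this complex moved in both directions. Ulk1 had 10.8 and 10.7 RPM with the Pcbp1 hairpin, against 7.76 and 5.94 RPM with the scrambled hairpin (log2 fold change 0.55 ± 0.17, adjusted p = 0.0286). Atg101 also rose, at 21.2 and 18.7 RPM with the Pcbp1 hairpin, against 12.2 and 13.3 RPM with the scrambled hairpin (log2 fold change 0.54 ± 0.12, adjusted p = 0.00707). Rb1cc1 fell, at 48.1 and 43.6 RPM with the Pcbp1 hairpin, against 75.7 and 69.3 RPM with the scrambled hairpin (log2 fold change -0.77 ± 0.08, adjusted p = 0.000201), and its groups did not overlap. Ulk2 (13.2 and 11.7 RPM hairpin, against 15.9 and 11.5 RPM scrambled) and Atg13 (10.2 and 8.53 RPM hairpin, against 9.24 and 13.1 RPM scrambled) did not pass, and their groups overlapped.

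In the class III PI3 kinase complex, Becn1 is the scaffold, Pik3c3 makes PI3P, Pik3r4 holds the kinase to the membrane, Ambra1 is a Becn1 partner, and Atg14 and Uvrag are alternative subunits for the starting membrane and for later and endosomal steps. Atg14 had 20.6 and 12 RPM with CPX, against 4.22 and 3.48 RPM with DMSO (log2 fold change 1.91 ± 0.38, adjusted p = 0.0125). Becn1 had 284 and 261 RPM with CPX, against 146 and 150 RPM with DMSO (log2 fold change 0.88 ± 0.19, adjusted p = 0.0153). Both genes had CPX libraries above DMSO without overlap. Uvrag, at 49.6 and 24.6 RPM with CPX, against 16.1 and 13.3 RPM with DMSO, missed the threshold (adjusted p = 0.0545), its 2 CPX libraries being 2-fold apart. Pik3c3 (24.1 and 32.2 RPM with CPX, against 43.5 and 34.5 RPM with DMSO), Pik3r4 (30.1 and 51.4 RPM with CPX, against 30.8 and 31.6 RPM with DMSO) and Ambra1 (93.5 and 110 RPM with CPX, against 84.2 and 81.8 RPM with DMSO) did not pass either.

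The catalytic pair held the knockdown's largest differences among the 37 genes. Pik3r4 had 29.3 and 25.7 RPM with the Pcbp1 hairpin, against 6.98 and 6.49 RPM with the scrambled hairpin (log2 fold change 1.92 ± 0.13, adjusted p = 2.85e-05), a 3.79-fold rise. Pik3c3 had 40.5 and 41.5 RPM with the Pcbp1 hairpin, against 20.7 and 14.7 RPM with the scrambled hairpin (log2 fold change 1.11 ± 0.15, adjusted p = 0.000686), a 2.15-fold rise. Ambra1 rose less, at 45.6 and 45.7 RPM with the Pcbp1 hairpin, against 33.4 and 34.2 RPM with the scrambled hairpin (log2 fold change 0.33 ± 0.09, adjusted p = 0.0146); with length and GC content taken out its log2 fold change turned to -0.02 (adjusted p = 0.824). Uvrag fell, at 16.8 and 16.4 RPM with the Pcbp1 hairpin, against 27 and 24.1 RPM with the scrambled hairpin (log2 fold change -0.73 ± 0.11, adjusted p = 0.00095), and so did Becn1, by a smaller step, at 60.6 and 56.4 RPM with the Pcbp1 hairpin, against 65.4 and 64.5 RPM with the scrambled hairpin (log2 fold change -0.26 ± 0.07, adjusted p = 0.0191). In each of these 5 genes the hairpin libraries lay on 1 side of the scrambled libraries. Atg14, at 4.25 and 4.69 RPM hairpin, against 3.39 and 4.26 RPM scrambled, overlapped between the groups and did not pass.

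Wipi1 and Wipi2 bind PI3P, and Wipi2 brings the conjugation machinery to the membrane; Atg2a and Atg2b move lipid along it and Atg9a is a lipid scramblase on vesicles that seed it. Wipi2 had 184 and 166 RPM with CPX, against 55.5 and 59.7 RPM with DMSO (log2 fold change 1.59 ± 0.21, adjusted p = 0.00403). Atg9a, a low gene, had 11.8 and 14.6 RPM with CPX, against 5.04 and 5.68 RPM with DMSO (log2 fold change 1.22 ± 0.32, adjusted p = 0.027). Wipi1 was near absence with DMSO and had 1.98 and 3.85 RPM with CPX, against 0.0509 and 0.205 RPM with DMSO (2.40 ± 0.37 on the log2(RPM + 0.5) scale, which understates such a low gene). The paralogs Atg2a and Atg2b parted: Atg2b had 93.7 and 63.8 RPM with CPX, against 110 and 111 RPM with DMSO, with the CPX libraries below DMSO, and did not pass (adjusted p = 0.161).

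Both paralogs were called higher with the hairpin. Atg2a had 16.6 and 13.1 RPM with the Pcbp1 hairpin, against 8.25 and 6.14 RPM with the scrambled hairpin (log2 fold change 0.94 ± 0.19, adjusted p = 0.00412). Atg2b had 111 and 109 RPM with the Pcbp1 hairpin, against 70.9 and 73.2 RPM with the scrambled hairpin (log2 fold change 0.50 ± 0.06, adjusted p = 0.000389). With length and GC content taken out neither was called, at a log2 fold change of 0.46 for Atg2a (adjusted p = 0.0791) and 0.14 for Atg2b (adjusted p = 0.104). Wipi2 rose by less, at 48.5 and 42.4 RPM with the Pcbp1 hairpin, against 32 and 34.1 RPM with the scrambled hairpin (log2 fold change 0.35 ± 0.10, adjusted p = 0.0197). Atg9a, at 3.03 and 3.22 RPM hairpin, against 3.03 and 1.26 RPM scrambled, did not pass, and Wipi1 was too low to test, at no more than 0.21 RPM in any library of the knockdown experiment.

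The conjugation enzymes couple Atg12 to Atg5 and ATG8 proteins to lipid: Atg7 is the E1-like enzyme, Atg3 and Atg10 are E2-like, and Atg12, Atg5 and Atg16l1 together act as the E3-like complex. Atg12, the ubiquitin-like protein of this chain, had 155 and 199 RPM with CPX, against 37.5 and 31 RPM with DMSO (log2 fold change 2.35 ± 0.25, adjusted p = 0.00291), a 5.09-fold rise. Its partners did not pass. Atg5 had 27.2 and 39.7 RPM with CPX, against 49.4 and 48.2 RPM with DMSO (adjusted p = 0.156), Atg16l1 had 64.8 and 57.5 RPM with CPX, against 71.9 and 71.6 RPM with DMSO and Atg7 had 13.1 and 11.7 RPM with CPX, against 19.5 and 19 RPM with DMSO, with the CPX libraries below DMSO in all 3 genes. Atg3 (55.7 and 71.2 RPM with CPX, against 70.7 and 73.1 RPM with DMSO) overlapped between the groups. Atg10 had 1.88 and 1.25 RPM with CPX, against 0.305 and 0.46 RPM with DMSO, low levels in which single reads weigh.

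With the hairpin this chain moved in both directions. Atg7 rose, at 30.5 and 28.7 RPM with the Pcbp1 hairpin, against 18.7 and 20 RPM with the scrambled hairpin (log2 fold change 0.51 ± 0.10, adjusted p = 0.00417). Atg5 fell, at 59.3 and 66.6 RPM with the Pcbp1 hairpin, against 82.1 and 89.4 RPM with the scrambled hairpin (log2 fold change -0.55 ± 0.09, adjusted p = 0.00129). Atg12 fell as well, at 32.7 and 33.3 RPM with the Pcbp1 hairpin, against 42.8 and 37.2 RPM with the scrambled hairpin (log2 fold change -0.39 ± 0.10, adjusted p = 0.0146), the opposite of its direction with CPX. Atg16l1 was slightly higher, at 81.6 and 73.6 RPM with the Pcbp1 hairpin, against 63.1 and 61.3 RPM with the scrambled hairpin (log2 fold change 0.21 ± 0.07, adjusted p = 0.0442), and Atg3 slightly lower, at 51.8 and 52.9 RPM with the Pcbp1 hairpin, against 58.6 and 55.2 RPM with the scrambled hairpin (log2 fold change -0.23 ± 0.08, adjusted p = 0.0382). With length and GC content taken out the log2 fold change of Atg3 turned to 0.15 (adjusted p = 0.114). Atg10, at 0.559 to 1.13 RPM, did not reach the filter of 1 RPM in 2 libraries and was not tested.

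The ATG4 proteases trim ATG8 proteins before conjugation and free them from lipid afterwards. Atg4d was the 1 gene of the 36 tested that fell with CPX, at 10 and 19.4 RPM with CPX, against 36.9 and 36.5 RPM with DMSO (log2 fold change -1.36 ± 0.38, adjusted p = 0.0336); the call was lost without either DMSO library (adjusted p = 0.167 without DMSO replicate 1 and 0.158 without DMSO replicate 2). It also fell with the hairpin, at 23.3 and 22.1 RPM with the Pcbp1 hairpin, against 27.3 and 28.2 RPM with the scrambled hairpin (log2 fold change -0.40 ± 0.10, adjusted p = 0.0108). Atg4a fell with the hairpin, at 5.28 and 5.59 RPM with the Pcbp1 hairpin, against 12 and 8.59 RPM with the scrambled hairpin (log2 fold change -1.03 ± 0.20, adjusted p = 0.00369), and did not pass with CPX (6.98 and 6.6 RPM with CPX, against 9.1 and 8.75 RPM with DMSO). Atg4b, the main protease of the family, was called in neither experiment, at 58.6 and 52.6 RPM with the Pcbp1 hairpin, against 53.8 and 51.2 RPM with the scrambled hairpin, and 67.6 and 75.8 RPM with CPX, against 68 and 64.1 RPM with DMSO (adjusted p = 0.825 and 0.688). Atg4c stayed at or under 0.773 RPM in every library and was tested in neither.

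The ATG8 proteins are the ubiquitin-like tags of the autophagosome membrane, in an LC3 branch (Map1lc3a and Map1lc3b) and a GABARAP branch (Gabarap, Gabarapl1 and Gabarapl2). Map1lc3a had 26.8 and 19.1 RPM with CPX, against 2.9 and 4.14 RPM with DMSO (log2 fold change 2.54 ± 0.36, adjusted p = 0.0047). Map1lc3b, whose protein is the usual marker of autophagosomes, had 194 and 228 RPM with CPX, against 58.3 and 55.4 RPM with DMSO (log2 fold change 1.88 ± 0.21, adjusted p = 0.00309). Gabarap had 212 and 193 RPM with CPX, against 66.1 and 85.3 RPM with DMSO (log2 fold change 1.42 ± 0.23, adjusted p = 0.00645). In these 3 genes the lowest CPX library was at more than 2-fold the highest DMSO library. Gabarapl1 had 302 and 217 RPM with CPX, against 136 and 98.3 RPM with DMSO (log2 fold change 1.15 ± 0.27, adjusted p = 0.0208) and Gabarapl2 had 60.2 and 65.3 RPM with CPX, against 37.8 and 38.1 RPM with DMSO (log2 fold change 0.72 ± 0.23, adjusted p = 0.0481), the smallest rise of the 22.

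Among the ATG8 genes Gabarapl1 rose with the hairpin, at 109 and 104 RPM with the Pcbp1 hairpin, against 68.6 and 80 RPM with the scrambled hairpin (log2 fold change 0.41 ± 0.09, adjusted p = 0.00465). Gabarapl2 was called lower, at 10.9 and 11.9 RPM with the Pcbp1 hairpin, against 14.4 and 14.9 RPM with the scrambled hairpin (log2 fold change -0.47 ± 0.13, adjusted p = 0.0154), but stood at -0.03 (adjusted p = 0.885) with length and GC content taken out. Map1lc3b, at 21.1 and 23.3 RPM with the Pcbp1 hairpin, against 24.3 and 26 RPM with the scrambled hairpin, missed the threshold (adjusted p = 0.0572). It was called lower with a filter of 5 RPM (adjusted p = 0.0369) and with a block for the replicate number (adjusted p = 0.0184). The same held with length and GC content taken out (adjusted p = 0.0189). Without hairpin replicate 2 its log2 fold change was -0.39. Map1lc3a (2.06 and 1.54 RPM hairpin, against 2.05 and 2.16 RPM scrambled) and Gabarap (56.6 and 63 RPM hairpin, against 61.7 and 61.2 RPM scrambled) overlapped between the groups.

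Among the receptors, Sqstm1, Nbr1 and Optn bind ubiquitinated cargo, Calcoco1 has been described as a receptor for endoplasmic reticulum and Golgi membranes, the kinase Pink1 marks damaged mitochondria, and Fundc1 is a mitochondrial membrane receptor used in hypoxia. Calcoco1 had 9.85 and 14.3 RPM with CPX, against 1.17 and 1.18 RPM with DMSO (log2 fold change 2.89 ± 0.33, adjusted p = 0.00322). Optn had 17.8 and 14.1 RPM with CPX, against 4.17 and 7.88 RPM with DMSO (log2 fold change 1.39 ± 0.40, adjusted p = 0.0376), and Pink1 had 22 and 29.4 RPM with CPX, against 8.54 and 10.4 RPM with DMSO (log2 fold change 1.38 ± 0.32, adjusted p = 0.0182). Nbr1, the close relative of Sqstm1, had 81.7 and 100 RPM with CPX, against 48.2 and 42.9 RPM with DMSO (log2 fold change 0.99 ± 0.24, adjusted p = 0.0211). The statistics for Sqstm1 were log2 fold change 3.02 ± 0.20, adjusted p = 0.00242. Fundc1 was the exception, at 4.64 and 4.83 RPM with CPX, against 8.09 and 8.13 RPM with DMSO, and did not pass (adjusted p = 0.103). The CPX libraries lay above DMSO without overlap in the 5 receptors that rose, which adds no test to their calls.

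With the hairpin Sqstm1 and Nbr1 also rose. Sqstm1 had 145 and 149 RPM with the Pcbp1 hairpin, against 102 and 109 RPM with the scrambled hairpin (log2 fold change 0.37 ± 0.07, adjusted p = 0.00241). Nbr1 had 37.2 and 36.4 RPM with the Pcbp1 hairpin, against 20.7 and 26 RPM with the scrambled hairpin (log2 fold change 0.54 ± 0.13, adjusted p = 0.00793). Fundc1 fell, at 16.8 and 18.6 RPM with the Pcbp1 hairpin, against 23.6 and 21 RPM with the scrambled hairpin (log2 fold change -0.44 ± 0.12, adjusted p = 0.0148), but its sign turned to a log2 fold change of 0.30 (adjusted p = 0.049) with length and GC content taken out. Optn (2.58 and 2.59 RPM hairpin, against 2.96 and 3.49 RPM scrambled), Calcoco1 (1.55 and 1.26 RPM hairpin, against 1.06 and 0.628 RPM scrambled) and Pink1 (8.25 and 5.38 RPM hairpin, against 13.3 and 7.61 RPM scrambled) did not pass. Pink1 was called lower without a filter on low values (adjusted p = 0.000386) and with a block for the replicate number (adjusted p = 0.00111). Its log2 fold change was -1.05 without hairpin replicate 1 and -1.06 without scrambled replicate 2.

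Levels set per kilobase of the longest annotated transcript put Sqstm1 first among the 37 genes with CPX, at 660 RPM per kb, against 80.7 RPM per kb with DMSO. Atg2a reached 110 RPM per kb with CPX, against 4.87 RPM per kb with DMSO, and so stood beside Gabarap (150 RPM per kb with CPX and 56 with DMSO) and Gabarapl1 (143 RPM per kb with CPX and 64.3 with DMSO). With the Pcbp1 hairpin Gabarapl1 (58.6 RPM per kb), Sqstm1 (54.9) and Gabarap (44.3) were the 3 highest, and with the scrambled hairpin Gabarap (45.5 RPM per kb), Gabarapl1 (40.8) and Sqstm1 (39.5). These are group means of 2 libraries.

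In the authors' deposited table for CPX 23 of the 37 genes were higher and 1 lower, where 22.1% of all genes with an adjusted p were higher and 19.2% lower; 22 calls were shared with the test above, Ulk2 and Uvrag were called higher in the authors' deposited table alone, and Gabarapl2 in the test above alone. Their log2 fold change for Wipi1 in the authors' deposited table was 4.11, and for Atg2a 4.45. In the authors' deposited table for the knockdown 9 of 34 were higher and 5 lower, where 23.5% of all genes with an adjusted p were higher and 20.1% lower. All 14 were called in the same direction above. The 9 genes called above and not in the authors' deposited table were Ulk1, Becn1, Ambra1, Wipi2, Atg3, Atg4d, Atg16l1, Gabarapl2 and Fundc1.

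Set side by side over the 34 genes tested in both experiments, 7 were higher in both (Ulk1, Atg101, Wipi2, Atg2a, Gabarapl1, Sqstm1 and Nbr1), where 4.48% of all 10430 genes tested in both were. A further 4 were lower with the hairpin and higher with CPX (Rb1cc1, Becn1, Atg12 and Gabarapl2), where 2.93% of all genes were. Atg4d alone was lower in both, where 7.36% of all genes were. With CPX alone 9 genes were called, all higher (Atg13, Atg14, Atg9a, Map1lc3a, Map1lc3b, Gabarap, Optn, Calcoco1 and Pink1), or 26.5% of the 34, where 7.58% of all genes were called higher with CPX alone. With the hairpin alone 6 were higher (Pik3c3, Pik3r4, Ambra1, Atg2b, Atg7 and Atg16l1) and 5 lower (Uvrag, Atg3, Atg4a, Atg5 and Fundc1). These are 17.6% and 14.7% of the 34, close to the 17.0% and 16.8% of all genes. Ulk2 and Atg4b were called in neither. The 2 experiments used different RNA selections and share no libraries.

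**Figure D3:**
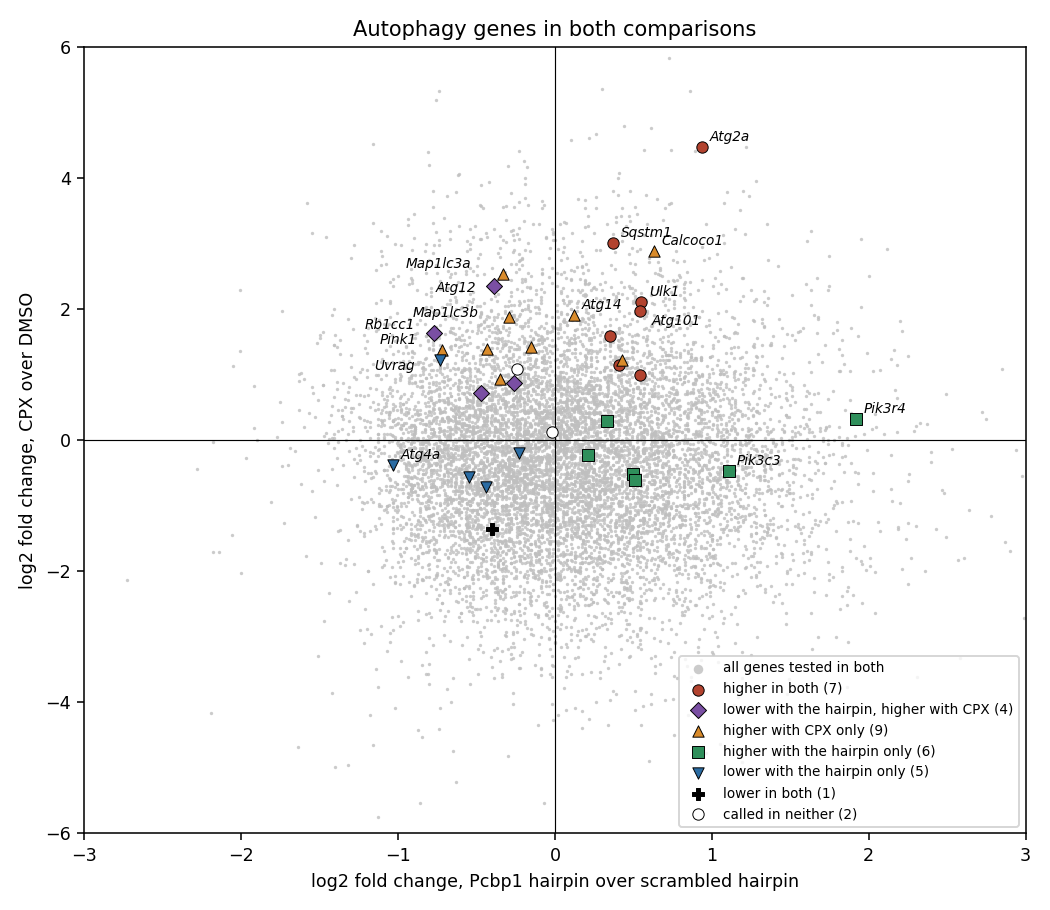
Log2 fold change of CPX over DMSO (vertical axis) against that of the Pcbp1 hairpin over the scrambled hairpin (horizontal axis); grey points are the 10430 genes tested in both, of which 6 lie outside the plotted range, and coloured symbols are the 34 autophagy genes by their calls. Atg2a stands at 0.94 and 4.48, and Pik3r4, called with the hairpin alone, at 1.92 and 0.33.

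Promoters are shown for genes called higher in both experiments. Whether these genes are regulated together was not tested. RefSeq windows of 300 bases, 250 before the start site and 50 after it (GRCm38.p6), are given for 3 of the 7, those in which the larger of the 2 adjusted p was smallest; capitals mark the motif ACGTG, the core of the hypoxia element, and no other motif searched occurs in them.
Sqstm1 (chr11:50210771-50211070, minus strand): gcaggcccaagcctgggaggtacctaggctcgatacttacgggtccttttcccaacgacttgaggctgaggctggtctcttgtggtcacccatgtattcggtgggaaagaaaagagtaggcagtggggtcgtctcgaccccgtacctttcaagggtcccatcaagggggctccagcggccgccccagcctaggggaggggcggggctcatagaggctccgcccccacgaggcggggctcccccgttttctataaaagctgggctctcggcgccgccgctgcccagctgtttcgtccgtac
Atg2a (chr19:6241418-6241717, plus strand): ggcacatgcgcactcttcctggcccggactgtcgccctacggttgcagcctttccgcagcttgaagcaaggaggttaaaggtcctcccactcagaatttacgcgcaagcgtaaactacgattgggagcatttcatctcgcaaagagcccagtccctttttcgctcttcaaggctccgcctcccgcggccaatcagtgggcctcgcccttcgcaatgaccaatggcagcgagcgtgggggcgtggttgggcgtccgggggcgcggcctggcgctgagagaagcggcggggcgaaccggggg
Atg101 (chr15:101284051-101284350, plus strand): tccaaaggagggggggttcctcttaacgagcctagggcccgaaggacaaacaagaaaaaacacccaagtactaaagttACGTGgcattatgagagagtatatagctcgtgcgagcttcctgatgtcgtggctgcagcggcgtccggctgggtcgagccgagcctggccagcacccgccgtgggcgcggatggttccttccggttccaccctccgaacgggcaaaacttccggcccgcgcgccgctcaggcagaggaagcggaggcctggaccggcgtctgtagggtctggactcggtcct
Their GC contents were 63.3%, 63.3% and 62%, against a median of 61% over 9339 promoters of genes tested in both experiments.

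Of the 37 genes 31 had at least 1 window in the RefSeq table, and 5 motifs were searched on both strands. A gene was counted if any of its windows held the motif. Some genes, Nbr1 among them, have more than 1 window and so more chances to match. The E-box CACGTG, bound by Tfeb and Tfe3, occurred in 4 of these 31 genes (Atg14, Atg3, Atg5 and Atg7), or 12.9%, against 12.6% of 7326 tested genes with a window and 8.09% of all 27025 genes. Its extended form TCACGTGA, which holds the shorter one, occurred in Atg3 alone (3.23%, against 2.57% of tested and 1.12% of all genes). The FOXO motif GTAAACA occurred in none, against 2.96% of tested and 4.05% of all genes. The antioxidant element TGACNNNGC, bound by Nfe2l2, occurred in Ulk2, Atg13 and Map1lc3b (9.68%, against 17.3% of tested and 14.0% of all genes). The hypoxia core ACGTG, which every E-box holds, occurred in 14 (45.2%, against 30.8% of tested and 21.8% of all genes), of which 6 were among the 18 genes with a window that rose with CPX and 8 among the other 13. A match in these windows is a description of their letters, and a missing match says nothing of sites elsewhere.

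The difference between the 2 effects was tested in 1 limma model over all 8 libraries. In 18 of the 34 genes the knockdown effect lay below the CPX effect, and in 5 it lay above (Pik3c3, Pik3r4, Atg2b, Atg7 and Atg16l1), where 16.1% of all genes tested lay below and 35.2% above. The widest gaps were Atg2a (-3.48 ± 0.27 on the log2 scale, adjusted p = 0.000121), Map1lc3a (-2.73 ± 0.38 on the log2 scale, adjusted p = 0.00115), Atg12 (-2.62 ± 0.25 on the log2 scale, adjusted p = 0.000247) and Sqstm1 (-2.55 ± 0.19 on the log2 scale, adjusted p = 0.0001). On the other side stood Pik3c3 (1.68 ± 0.33 on the log2 scale, adjusted p = 0.00483) and Pik3r4 (1.62 ± 0.36 on the log2 scale, adjusted p = 0.0082). Of the 7 genes that rose in both, Gabarapl1 (-0.62 ± 0.30 on the log2 scale, adjusted p = 0.124) and Nbr1 (-0.34 ± 0.25 on the log2 scale, adjusted p = 0.294) did not pass this test, but did under TMM scaling (adjusted p = 0.047 and 0.0436). The effects of Ambra1, Atg9a, Atg3, Atg4a, Atg5 and Fundc1, each called in 1 experiment, did not pass it either (adjusted p between 0.227 and 0.802). When 1 hairpin, scrambled or DMSO library was left out, calls on Ulk1, Atg13, Atg14, Optn or Atg16l1 were lost. Without 1 CPX library no call was lost, but calls were added. These were Ulk2 (-1.75) and Atg4d (0.61) without CPX replicate 1, and Atg4d (1.54) and Gabarapl1 (-0.86) without CPX replicate 2. The spread between the CPX libraries, whose replicates agreed least, does not enter those fits. They therefore cannot show whether the calls hold. The median difference was -1.10 on the log2 scale, against 0.40 over all genes. Under TMM scaling the all-gene median was 0.04, with 27.3% of all genes above and 23.4% below, and 21 of the 34 genes lay below and 3 above.

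Genes around the 37 were counted from lists that hold none of them, to be read against the 20.0% of all genes higher and 24.8% lower with CPX, and 29.3% higher and 26.7% lower with the hairpin. Of 18 other core genes tested with CPX, 6 were higher, Rubcnl among them, and 2 lower (median log2 fold change 0.29), and of 17 tested with the hairpin 7 were higher and 8 lower (median -0.06). Tecpr1, which acts in autophagosome maturation, had 116 and 68.6 RPM with CPX, against 8.85 and 11.5 RPM with DMSO (log2 fold change 3.09 ± 0.35, adjusted p = 0.00312). Wdr45, a relative of Wipi2, had 33.5 and 34.4 RPM with CPX, against 9.05 and 9.36 RPM with DMSO (log2 fold change 1.83 ± 0.27, adjusted p = 0.0055) and moved the other way with the hairpin, at 3.74 and 2.94 RPM with the Pcbp1 hairpin, against 7.13 and 6.42 RPM with the scrambled hairpin (log2 fold change -1.12 ± 0.20, adjusted p = 0.00247). Rubcnl (Pacer) had 3.07 and 3.22 RPM with CPX, against 0 and 0.102 RPM with DMSO, and passed the filter on low values only through the CPX libraries. Ei24 fell with CPX (-1.91 ± 0.25 on the log2 scale) and rose with the hairpin (0.83 ± 0.10). Wac and Epg5, the tether of autophagosomes to lysosomes, rose in both experiments, Wac by 1.26 ± 0.09 with the hairpin and 0.73 ± 0.19 with CPX, and Epg5 by 1.14 ± 0.12 with the hairpin and 1.25 ± 0.37 with CPX. Vmp1, needed to form the membrane, fell with the hairpin (-0.66 ± 0.06) and did not pass with CPX.

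Among 20 other receptors and mitophagy genes tested with CPX, 3 were higher and 4 lower (median -0.01), and of 19 tested with the hairpin 4 were higher and 6 lower (median -0.08). Tax1bp1, a receptor related to Calcoco1, had 279 and 263 RPM with the Pcbp1 hairpin, against 104 and 97.3 RPM with the scrambled hairpin (log2 fold change 1.32 ± 0.06, adjusted p = 1.21e-05). It had 1002 and 805 RPM with CPX, against 254 and 266 RPM with DMSO (log2 fold change 1.79 ± 0.20, adjusted p = 0.0031), so that its groups stood apart in both experiments. Ncoa4, the ferritin receptor, had 12.4 and 15.9 RPM with the Pcbp1 hairpin, against 13.4 and 14.4 RPM with the scrambled hairpin (adjusted p = 0.691) and 58.7 and 75 RPM with CPX, against 57.4 and 60.8 RPM with DMSO (adjusted p = 0.599), and its groups overlapped in both. The mitophagy receptors Bnip3 and Bnip3l fell with the hairpin, Bnip3 with 5.48 and 6.22 RPM with the Pcbp1 hairpin, against 7.48 and 9.29 RPM with the scrambled hairpin (log2 fold change -0.63 ± 0.19, adjusted p = 0.023) and Bnip3l with 12.1 and 8.88 RPM with the Pcbp1 hairpin, against 17.5 and 16.4 RPM with the scrambled hairpin (log2 fold change -0.80 ± 0.16, adjusted p = 0.00386). Bnip3 had 20.9 and 82.3 RPM with CPX, against 2.64 and 20.6 RPM with DMSO, and Bnip3l had 56.3 and 94.8 RPM with CPX, against 24.3 and 43.7 RPM with DMSO, and neither passed in that comparison (adjusted p = 0.116 and 0.0637). Sec62, a receptor for endoplasmic reticulum, rose with the hairpin to 96.7 and 103 RPM with the Pcbp1 hairpin, against 29.5 and 30.8 RPM with the scrambled hairpin (log2 fold change 1.62 ± 0.08, adjusted p = 1.22e-05). The reticulum receptor Retreg1 (-0.65 ± 0.07) and Nufip1 (-0.72 ± 0.06) fell with the hairpin. With CPX Retreg3 rose (1.51 ± 0.24), while the mitochondrial proteins Phb2 (-1.76 ± 0.21) and Nipsnap1 (-2.49 ± 0.40), which also serve in mitophagy, fell.

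For fusion of autophagosomes with lysosomes, 5 of 18 genes tested were higher, Rufy4 among them, and 2 lower with CPX (median 0.06), and 7 of 17 higher and 4 lower with the hairpin (median 0.23). Of 6 subunits of the tethering complex HOPS, 4 rose with the hairpin, 1 did not pass and 1 fell. Vps16 had 73.5 and 64.8 RPM with the Pcbp1 hairpin, against 29.3 and 28.6 RPM with the scrambled hairpin (log2 fold change 1.15 ± 0.09, adjusted p = 4.99e-05), and Vps33a (0.95 ± 0.09), Vps18 (0.99 ± 0.13) and Vps11 (0.88 ± 0.11) rose with it. Vps39 did not pass (adjusted p = 0.065) and Vps41 fell (log2 fold change -0.31 ± 0.08, adjusted p = 0.0149), both of them named after their values were seen. Arl8a, a lysosomal GTPase, rose with the hairpin (0.98 ± 0.13). Rab7, the GTPase of late endosomes, had 1002 and 750 RPM with CPX, against 327 and 296 RPM with DMSO (log2 fold change 1.48 ± 0.22, adjusted p = 0.00534). Vps18 (1.28 ± 0.24) rose with CPX and Tgfbrap1 (-1.85 ± 0.32) fell. Rufy4 had 4.58 and 5.04 RPM with CPX, against 0.0509 and 0.153 RPM with DMSO, and passed the filter on low values only through the CPX libraries.

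Upstream, 8 of 41 mTORC1 and AMPK genes were higher and 9 lower with CPX (median -0.31), or 19.5% higher, against 20.0% of all genes, where 24.8% of all genes were lower. With the hairpin 16 were higher and 9 lower (median 0.21), or 39.0% higher, against 29.3% of all genes, where 26.7% of all genes were lower. Rptor, the mTORC1 subunit that binds substrates, rose with the hairpin (62.5 and 64.8 RPM with the Pcbp1 hairpin, against 27.6 and 30.3 RPM with the scrambled hairpin; log2 fold change 1.03 ± 0.09, adjusted p = 8.05e-05) and so did Tsc2, an inhibitor of the pathway (25.6 and 23.8 RPM with the Pcbp1 hairpin, against 9.95 and 9.92 RPM with the scrambled hairpin; log2 fold change 1.21 ± 0.11, adjusted p = 9.45e-05). Cab39 (-0.65 ± 0.06) and Lamtor5 (-0.66 ± 0.08) fell with the hairpin. The activating GTPase Rheb had 253 and 235 RPM with CPX, against 74.4 and 74.9 RPM with DMSO (log2 fold change 1.70 ± 0.20, adjusted p = 0.00316), and Fnip1, a partner of folliculin, had 307 and 237 RPM with CPX, against 49.4 and 37.7 RPM with DMSO (log2 fold change 2.63 ± 0.26, adjusted p = 0.00255). Rraga, a GTPase that recruits mTORC1 to the lysosome, had 3.59 and 8.52 RPM with CPX, against 79.1 and 67.5 RPM with DMSO (log2 fold change -3.60 ± 0.44, adjusted p = 0.00353), and Nprl3, of a complex that inhibits it, had 2.08 and 2.24 RPM with CPX, against 18 and 19.3 RPM with DMSO (log2 fold change -2.85 ± 0.30, adjusted p = 0.00293).

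Of 20 transcriptional and other regulators, 6 were higher and 2 lower with CPX (median 0.53), and 7 higher and 5 lower with the hairpin (median 0.21). Tfeb, a master regulator of autophagy and lysosome genes, had 3.93 and 3.78 RPM with the Pcbp1 hairpin, against 2.68 and 2.79 RPM with the scrambled hairpin and 6.3 and 3.17 RPM with CPX, against 3.61 and 7.67 RPM with DMSO, passing in neither experiment (adjusted p = 0.159 and 0.75). Its relative Tfe3 (17.3 and 20.4 RPM hairpin, against 13.9 and 15.6 RPM scrambled; 53.8 and 55 RPM with CPX, against 39.7 and 39.6 RPM with DMSO) passed in neither. Foxo3, a transcription factor that drives autophagy genes, had 133 and 171 RPM with CPX, against 19.3 and 24.1 RPM with DMSO (log2 fold change 2.78 ± 0.26, adjusted p = 0.00251) and 20.6 and 18.5 RPM with the Pcbp1 hairpin, against 9.59 and 8.8 RPM with the scrambled hairpin (log2 fold change 0.98 ± 0.13, adjusted p = 0.000439). Foxo1 rose by 2.06 ± 0.28 with CPX and 1.35 ± 0.11 with the hairpin, and Nfe2l2, the factor of the antioxidant response, by 2.03 ± 0.39 with CPX and 0.82 ± 0.11 with the hairpin. Zfp36, which destabilises RNAs and was counted here as a regulator, had 421 and 713 RPM with CPX, against 37.3 and 45 RPM with DMSO (log2 fold change 3.73 ± 0.31, adjusted p = 0.00242) and rose by 1.24 ± 0.16 with the hairpin. Bcl2l1 (Bcl-xL), which holds Becn1 inactive, had 20.3 and 42.5 RPM with CPX, against 362 and 522 RPM with DMSO (log2 fold change -3.86 ± 0.40, adjusted p = 0.00288).

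**Figure D4:**
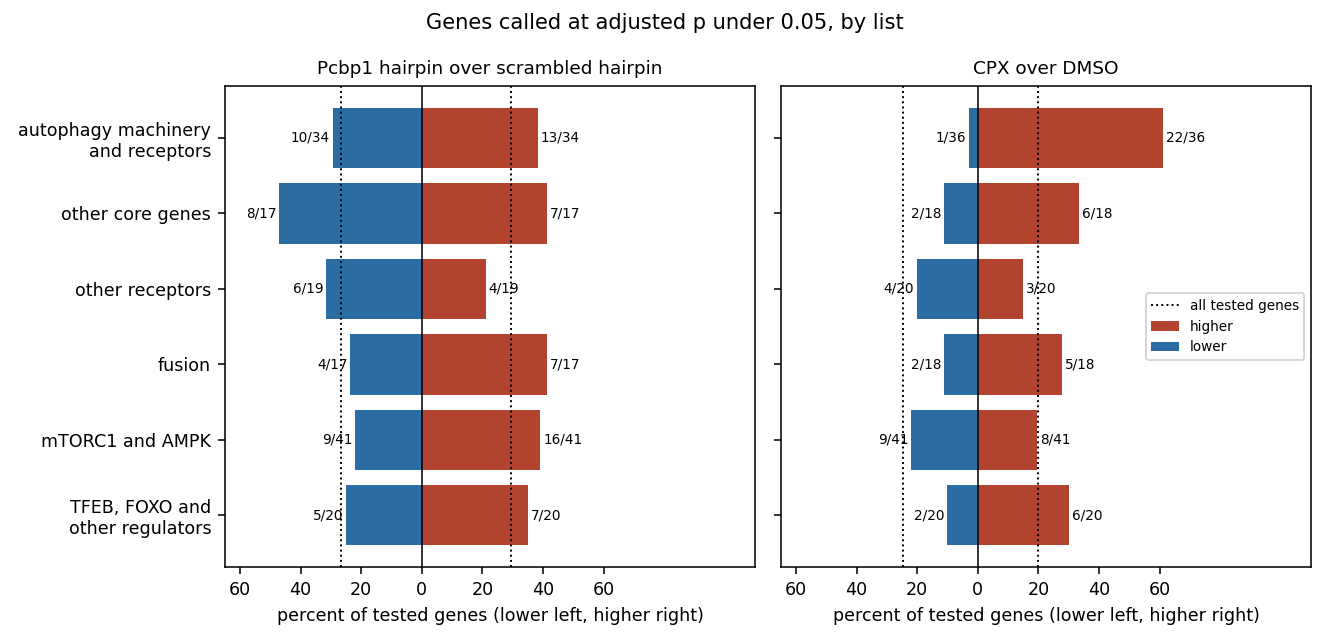
Percent of tested genes called higher (red, to the right) or lower (blue, to the left) at adjusted p under 0.05 in each list, with counts beside the bars, the Pcbp1 hairpin over the scrambled hairpin on the left and CPX over DMSO on the right; dotted lines are the shares over all tested genes. With CPX the 37-gene set reaches 61.1% higher, and the other lists lie between 15.0% and 33.3%. Without genes that passed the filter on low values only through the CPX libraries, the set was at 58.8%. The other lists then lay between 15.0% and 30.0%, and all genes at 14.8%.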

How the data were processed

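RNA-seq values of 8 libraries in 4 groups of 2 were used: Pcbp1 hairpin and scrambled hairpin, CPX and DMSO. Reads were processed with cutadapt, STAR, HTSeq and DESeq on mm9, per the submitters' processing notes. The sources used here do not state versions, annotation, or how strand and reads that map more than once were treated. The deposited table is named for RPM, and the design assumed that unit, but the knockdown columns are raw counts: divided by size factors they give the mean signal (mean normalized count) of the authors' deposited table within a relative error of 6.62e-10. The deposited CPX and DMSO columns are a score, counts rescaled by a common factor (about 1.965 reads per unit) and rounded by the authors. The authors' deposited result tables also give log2 fold changes, their standard errors, a test statistic (score), p-values and adjusted p-values.

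Labels after the line Ins1, which holds 23487630 in every library, were displaced. Lines were placed by the means in both of the authors' deposited tables: all 20582 lines before it fit their own label, 13137 of 13316 after it fit the preceding label, 117 were placed by a single matching gene and 62 were left out.

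RPM was computed here from each library's total without that line. Genes with at least 1 RPM in 2 of 4 libraries were tested. For the knockdown counts the quasi-likelihood test of edgeR 4.0.16 was used after TMM scaling. For CPX, and for the difference of the effects, log2(RPM + 0.5) was fitted by limma 3.58.1 with a trended variance. Both ran in R 4.3.3, with Benjamini-Hochberg adjustment over all genes tested (11575, 11485 and 10430) and a threshold of 0.05. Standard errors of edgeR fold changes were worked back from the F statistic. The fits were also run on simulated data with a fixed spread and few genes changed, a setting unlike the real libraries. Those runs are no check of the calls. Alternatives were DESeq2 1.42.0, other scalings, filters and pseudocounts, a replicate block, length and GC content, and leaving out each library. Transcript lengths are from GENCODE M21.

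The members and all gene lists were chosen with earlier results of these data known. All 37 members are accounted for; from each other list the text names up to 4 called genes with the smallest p in each comparison, and Ncoa4, Tfeb, Tfe3, Bnip3, Bnip3l and Tax1bp1 whatever their values. Vamp7 and Map1lc3b2, on these lists, were not analysed here.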

Additional observations from a re-analysis of the deposited data

How the results depend on the processing

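The members' counts with CPX, Wipi1 and Atg10 included, were 22 higher and 1 lower, where 20.0% of all genes were higher and 24.8% lower. Without a filter on low values they were 17 and 0 (11.3% and 10.9% of all genes). Quantile normalization gave 23 and 0 (20.3% and 22.4%), and TMM scaling 24 and 1 (22.5% and 22.5%). Other pseudocounts gave 22 and 1 (19.8% and 24.5% at 0.1, 19.9% and 24.8% at 1). With length and GC content taken out the counts were again 22 and 1 (20.3% and 24.9%). Leaving out 1 library gave 11 to 22 higher and 0 to 2 lower. The knockdown's 13 higher and 10 lower (29.3% and 26.7% of all genes) were 9 and 7 by DESeq2 (25.0% and 22.9%). Limma without TMM scaling gave 13 and 8 (34.6% and 21.6%). The same limma fit with length and GC content taken out gave 8 and 5 (30.7% and 16.4%). It also turned Ambra1 to -0.02 (adjusted p = 0.824), Atg3 to 0.15 (adjusted p = 0.114) and Fundc1 to 0.30 (adjusted p = 0.049). The cause was not tested. Leaving out 1 library gave 10 to 11 higher and 7 to 9 lower. For the difference of the effects, 5 higher and 18 lower, TMM scaling gave 3 and 21, quantile normalization 2 and 21 (with 26.7% of all genes higher and 24.7% lower), and leaving out 1 library 4 to 6 and 15 to 19. With a replicate block the counts were 13 and 12 in the knockdown (32.7% and 30.8% of all genes). They were 23 and 1 with CPX (22.5% and 26.9%), and 4 and 19 for the difference (35.2% and 16.2%). The block added Pink1 (adjusted p = 0.00111) and Map1lc3b (adjusted p = 0.0184), both lower, in the knockdown; with CPX it added Ulk2 (adjusted p = 0.0482) and Uvrag (adjusted p = 0.0204) and lost Gabarapl2 (adjusted p = 0.0841); in the difference it added Gabarapl1 (adjusted p = 0.0423) and lost Atg16l1 (adjusted p = 0.0672). The labels number the replicates without stating a pairing, and deviations of same-numbered libraries correlated at 0.289 in the knockdown and 0.101 with CPX, over 2 pairs each. The CD8 and NK marker sums given above also followed the replicate number in the knockdown. The main tests did not take the replicate number into account. Held under every alternative in which the gene was tested were 7 of 13 and 3 of 10 calls in the knockdown, 10 of 22 and 0 of 1 with CPX, and 2 of 5 and 14 of 18 in the difference. The 10 include Wipi1, and the 22 include Wipi1 and Atg10, whose calls with CPX are no test. The share of all called genes that held was not counted. Depth limits Wipi1, Atg4c and Atg10, which lay near the counting floor; Atg4c was tested in no comparison, Wipi1 and Atg10 with CPX alone, and neither under a filter of 5 RPM.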
